A study of Mus musculus with 14 samples.

Results

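The 10 genes of heart and blood-vessel formation were described by the p300, RXRα, Sp5 and Zeb2 binding regions nearest to them. They were the cardiac transcription factor genes Tbx5, Hand2, Gata4, Nkx2-5 and Isl1, and the vessel and blood genes Runx1, Tal1, Kdr, Etv2 and Lmo2. A region was a stretch of merged peaks covered in both replicates of a group. It was counted for a member when the nearest end of any protein-coding gene, within 100 kb of its strongest summit, belonged to that member. All 10 genes had at least 1 region, out of 16951 genes with a region and 21887 protein-coding genes in the RefSeq table of build GRCm38. They held 88 of the 132214 regions summed over the 6 groups, 45 at the cardiac genes and 43 at the vessel and blood genes. A region may act on a gene other than the nearest, and no transcript was measured.

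The series holds chromatin immunoprecipitation sequencing of mouse embryonic stem cells (mESCs) and of gastruloids, embryo-like aggregates collected at 120 h. Each aggregate was started from 300 sorted cells and given 3 µM CHIR99021, a Wnt pathway activator, at 48 h. All libraries came from the line labelled E14_triple reporter, while the growth protocol describes reporters for Brachyury and SOX17 only. The p300 libraries, 2 per cell type, and the 2 inputs came from cells with an endogenous p300-V5-miniTurboID allele, precipitated through V5. The RXRα libraries (2 per cell type), the Sp5 libraries (2) and the Zeb2 libraries (2), the last pairs from gastruloids only, came from cells whose own gene carried an HA-FKBP12F36V degron tag, precipitated through HA. Whether the replicates are separate cultures is not in the labels, and a gastruloid is a mixture of cell types, so a site used by few cells and a weak site cannot be told apart.

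Heart and blood-vessel cells arise from neighbouring populations of mesoderm. Etv2, an ETS factor, starts the programme of blood and vessel progenitors and acts upstream of Tal1 and Lmo2, and Kdr, the main receptor for vascular endothelial growth factor, marks those progenitors and part of the cardiac mesoderm. Gata4, Nkx2-5, Tbx5, Hand2 and Isl1 act in overlapping combinations in the early heart. p300 is an acetyltransferase recruited to active enhancers, RXRα is the partner of the retinoic acid receptors, Sp5 is a zinc-finger target of the Wnt pathway, and Zeb2 is a repressor linked to loss of epithelial character.

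After peaks at input peaks were removed, the immunoprecipitation lists held 3111 to 75346 peaks, the shortest being the second RXRα replicate of gastruloids. Neither input had a peak at a member. As a check of the labels, 39 of 41 p300 regions of a single cell type at 8 genes of gastruloid tissues were absent from mESCs, against 13 of 36 at 8 pluripotency genes. Sequencing depth was not given. The fragments at each summit, recovered from the authors' values, numbered 8 to 120 at the members' p300 regions of gastruloids and 11 to 96 at those of mESCs. A summit of 10 fragments has an exact Poisson 95% interval of 4.8 to 18.4, so weak sites can be missed in a library at this depth, and the absence of a peak is not absence of binding.

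Most p300 regions of these genes were found in gastruloids and not in mESCs. The members held 49 p300 regions in gastruloids and 12 in mESCs. Of the 53 that belonged to a single cell type, 44 were gastruloid-only, meaning a region in both gastruloid libraries with no peak in either mESC library, and 9 were mESC-only. That is 83% of the members' regions of a single cell type, beside 71.1% over all genes. Counting error was not set beside this gap, and of the 44 regions 11 were at Runx1 and 9 at Kdr. The cardiac genes (19 of 23, 82.6%) and the vessel and blood genes (25 of 30, 83.3%) had nearly the same share. With every list shortened to equal length, which leaves fewer and stronger peaks, the members stood at 15 of 23 (65.2%) beside 49.6% over all genes. No test was run, since 2 libraries against 2 cannot give an exact permutation p below 0.333 and the genes were chosen with earlier results known.

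Gene by gene, 9 of the 10 had a gastruloid-only p300 region, which 55.4% of all genes had. The gastruloid-only regions outnumbered the mESC-only ones at 8 members, against 43.9% of all genes. Nkx2-5 was the exception with more mESC-only than gastruloid-only regions, as were 11.2% of all genes, and Tal1 had neither kind. Counted as single peaks per library, 9 members had more p300 peaks in each gastruloid library than in each mESC library, against 37% of all genes. The exception was Nkx2-5, whose mESC libraries had 3 and 3 peaks and whose gastruloid libraries had 3 and 5. The stretch in which a summit would be assigned to a member ran from 8.89 kb at Etv2 to 330 kb at Runx1. These stretches summed to 1522 kb over the 10 members and to 1697669 kb over the 21887 genes, so a member's was longer on average. The numbers of genes given above do not allow for this. Per 100 kb of these stretches the members had 2.89 gastruloid-only p300 regions and all genes 1.6, and for mESC-only regions the values were 0.591 and 0.65. By number alone, Runx1 had more gastruloid-only regions than 99.5% of all genes, Kdr than 98.9% and Tbx5 than 96.2%. These ranks do not allow for the length of the stretch, which was 330, 227 and 245 kb at these 3. Per 100 kb they had 3.33, 3.97 and 2.45 gastruloid-only regions, within a range over the members from 0 at Tal1 to 11.3 at Etv2.

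**Figure D1:**
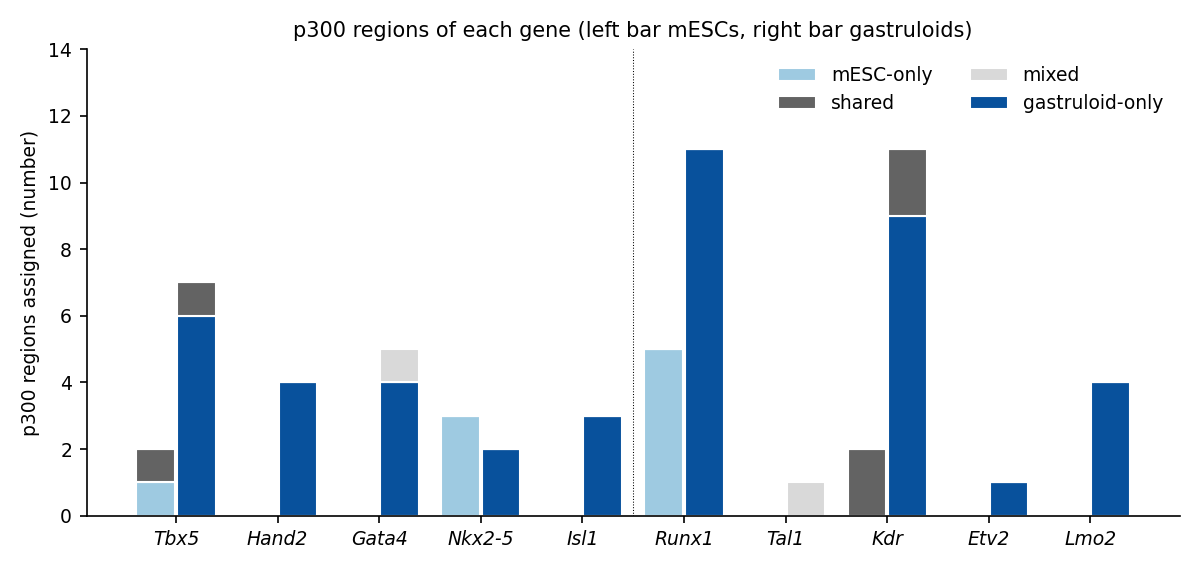
Number of p300 regions found in both replicates (y axis) at each gene (x axis), with mESCs as the left bar and gastruloids as the right bar, and colours for regions of a single cell type, shared regions (a peak in both libraries of the other cell type) and mixed ones (a peak in 1 of them). The gastruloid bar is the taller at every gene but Nkx2-5, which has 3 regions in mESCs and 2 in gastruloids.

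**Figure D2:**
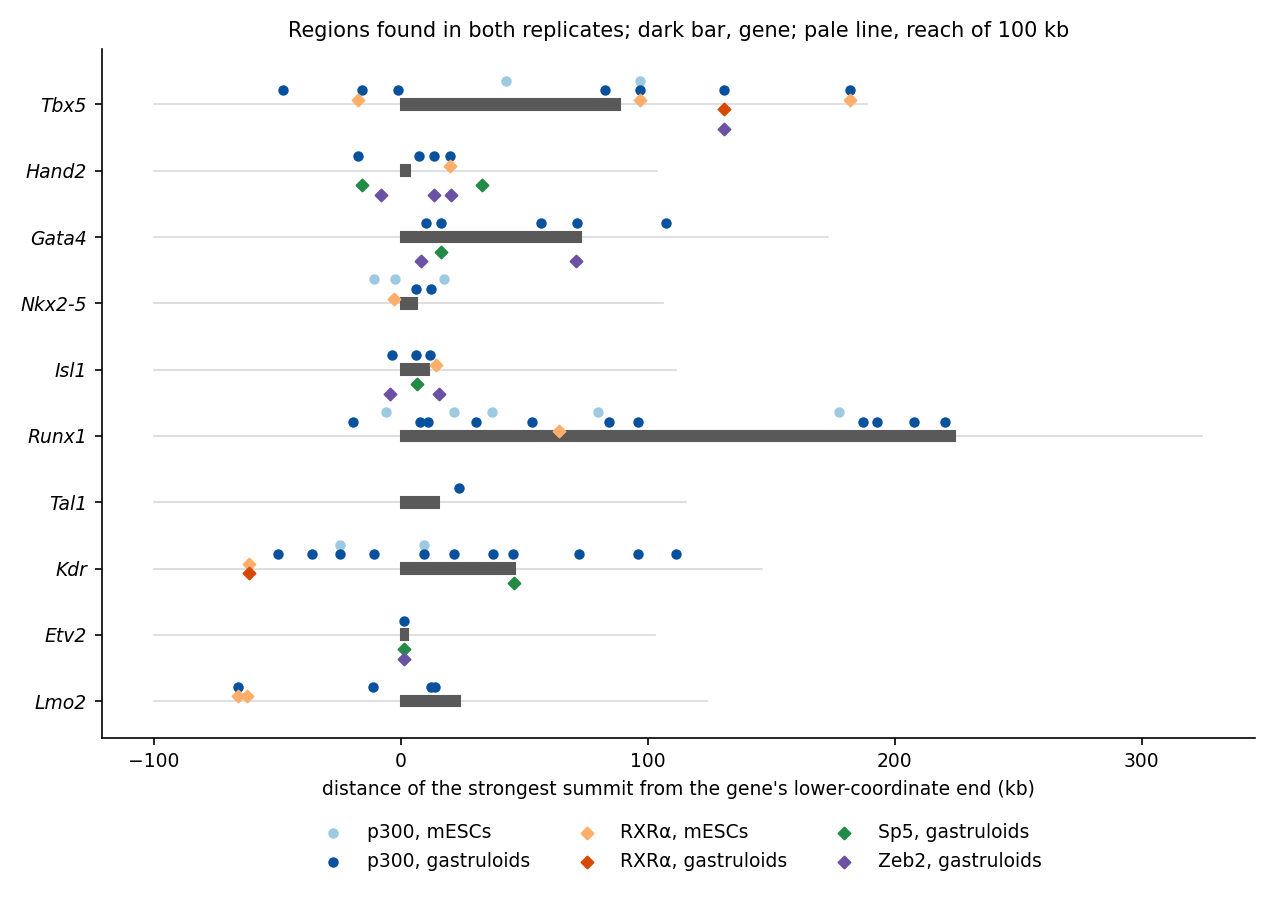
Position of each region's strongest summit in kb from the gene's lower-coordinate end (x axis), for each gene (rows) and each factor and cell type (colours and heights within a row), with the gene as a dark bar and the reach of 100 kb as a pale line. Regions at Kdr and Tbx5 are spread over both flanks, and 10 of the 11 gastruloid p300 regions of Runx1 lie inside the gene.

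The members' p300 regions were mostly away from gene ends. Within 1 kb of an end lay 3 of 49 gastruloid regions (6.12%, 95% Clopper-Pearson interval 1.28% to 16.9%, counting error only), beside 22.5% over all genes. These were at Isl1 (273 bp), Nkx2-5 (390 bp) and Kdr (774 bp). Inside the gene lay 24 of 49 (49%, against 51% of all assigned regions). RefSeq promoter windows of GRCm38.p6, which run from 250 bases before a gene's first base to 50 after it, were at hand for 7 members in 9 windows, and 3 windows held p300 peaks of both gastruloid replicates. The 250 bases before the first base of these 3 are shown because p300 peaks overlapped their windows. Any GC box (GGGCGG, the kind of motif that Sp factors bind) is in capitals.
Kdr, minus strand, chr5:75978456-75978705: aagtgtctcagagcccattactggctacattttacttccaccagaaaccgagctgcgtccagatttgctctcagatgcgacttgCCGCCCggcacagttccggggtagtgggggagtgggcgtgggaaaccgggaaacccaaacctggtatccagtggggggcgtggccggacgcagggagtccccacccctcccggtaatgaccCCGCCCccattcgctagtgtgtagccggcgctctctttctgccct
Isl1, minus strand, chr13:116309689-116309938: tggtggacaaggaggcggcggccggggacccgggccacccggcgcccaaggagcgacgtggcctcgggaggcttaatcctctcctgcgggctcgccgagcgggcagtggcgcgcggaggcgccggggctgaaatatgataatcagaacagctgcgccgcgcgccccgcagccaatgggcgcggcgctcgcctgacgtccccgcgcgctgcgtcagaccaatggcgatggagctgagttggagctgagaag
Runx1, minus strand, chr16:92697330-92697579: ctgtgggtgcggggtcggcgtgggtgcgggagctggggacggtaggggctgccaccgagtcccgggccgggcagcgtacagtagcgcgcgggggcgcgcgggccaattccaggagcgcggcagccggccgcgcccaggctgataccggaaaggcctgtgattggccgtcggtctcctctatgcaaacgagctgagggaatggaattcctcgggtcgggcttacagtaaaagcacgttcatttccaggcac
The Runx1 window is that of its downstream start, inside the longer gene. From the first base, the p300 summits of the 2 gastruloid replicates lay at 157 and -392 at Kdr and at -273 and -152 at Isl1. At Runx1 they lay at -336 and 53. Of these summits only that of the second replicate at Isl1 fell within the printed bases. The p300 folds over these windows in the 2 gastruloid replicates were 3.85 and 3.23 at Kdr, 4.08 and 4 at Isl1, and 4.48 and 4.18 at Runx1. Their means were below the median of the members' gastruloid p300 regions, 5.61. The p300 peak of the second replicate at Kdr was near the threshold, with 8 fragments and a −log10 q of 1.95. No mESC p300 list had a peak there.

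Sp5 was found at 1 of these 3 promoters. The Kdr window had Sp5 peaks in both replicates, with folds of 6.1 and 6.8, and the other 2 had none. Over all genes Sp5 was at 20.9% of gastruloid p300 regions and at 8.58% of those over 1 kb from a gene end. Sp5 was thus commoner near gene ends in general, and its share over all promoter windows was not counted. In Kdr the GC boxes, seen as CCGCCC on the printed strand, begin 166 and 45 bases before the first base, and the Sp5 summits lay between them, at -132 and -90. Over all 32851 RefSeq windows of the main chromosomes 35.7% held a GC box on either strand, and the Isl1 and Runx1 windows held none. Hand2 also has 2 GC boxes, and its window had a p300 peak and a Zeb2 peak in the first replicate only (folds of 3.32 and 3.92) and no Sp5 peak. Its 250 bases are shown for comparison with Kdr.
Hand2, plus strand, chr8:57320733-57320982: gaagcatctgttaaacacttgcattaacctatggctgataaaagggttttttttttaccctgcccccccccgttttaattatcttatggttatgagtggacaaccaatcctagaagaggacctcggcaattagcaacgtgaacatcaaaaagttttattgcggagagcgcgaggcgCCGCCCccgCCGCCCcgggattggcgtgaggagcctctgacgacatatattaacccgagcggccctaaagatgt
Zeb2 peaks of the first replicate alone also lay over the windows of Kdr (4.54), Isl1 (4.96), Nkx2-5 (3.65) and the downstream start of Runx1 (3.2), none of which holds CACCTG. From the first base, their summits lay at -344 at Kdr, -307 at Isl1 and 148 at Nkx2-5, outside the bases searched. At Runx1 the summit lay inside them, at -153. The second of 2 Tal1 windows held 4 GC boxes and a peak of none of the 12 libraries. CACCTG, an E-box of the kind that Zeb2 binds, was in 1 member window, the upstream one of Runx1, which had no peak of any library, and in 20.2% of all windows. AGGTCA, the core motif of nuclear receptor sites, was in 0 of the 9 and in 16.3% of all. The 3 motifs were searched on both strands and did not overlap in these windows. A match is only a run of letters.

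Tbx5, a T-box factor of the heart and forelimb (chromosome 5, 119796514 to 119885220), had 7 gastruloid p300 regions, 6 of them gastruloid-only, and 2 in mESCs. All fold enrichments here are the authors' own MACS2 ratio of the summit to the local background, and they are not a measure of binding that can be set against another list, since lists differ in depth and in number of peaks. Regions were ranked within a group by the mean fold of its replicates. The strongest region, chr5:119926878-119927447, lay 41992 bp beyond the gene's higher-coordinate end, with p300 folds of 13.6 and 16 in gastruloids and no peak in mESCs. It was the members' only gastruloid-only RXRα region, with folds of 9.7 and 8.14, and it also held Zeb2 (13.3 and 8.73) and an Sp5 peak in the second replicate alone (4.7). The summits of RXRα, Sp5 and Zeb2 were all within 43 bp of the p300 summit of the first replicate. A further gastruloid-only region 15659 bp beyond the lower-coordinate end had p300 folds of 9.71 and 14.7 and no other factor.

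A different kind of Tbx5 region lay 7998 bp beyond the higher-coordinate end. p300 was present there in all 4 libraries, with folds of 5.66 and 5.68 in mESCs and 12.5 and 11.3 in gastruloids. RXRα was present in mESCs, at folds of 22 and 16.1 (136 and 92 fragments), and had no peak in either gastruloid library. By −log10 q those RXRα peaks stood at percentiles 97.3 and 95.9 of their lists. The Tbx5 regions at 41992 bp and at 7998 bp thus differed in the cell type in which RXRα was found, while p300 was found at both in gastruloids. Another site with RXRα, 93042 bp out and near the limit of assignment, had p300 in gastruloids (5.41 and 6.4), RXRα in mESCs (6.31 and 4.76) and RXRα in the first gastruloid library alone (4.13).

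Gata4, a zinc-finger factor needed for heart tube formation (chromosome 14, 63198914 to 63271712), had 5 gastruloid p300 regions, 4 of them inside the gene, and none in mESCs. The strongest lay 16374 bp inside the lower-coordinate end and had the highest mean p300 fold of any member's region, with 15.8 and 20.4 (84 and 109 fragments). Sp5 was present there in both replicates (17.1 and 8.67), and the first replicates of RXRα (10.2) and Zeb2 (5.83) had a peak as well. A region 1671 bp inside the other end had p300 folds of 9.83 and 10.4 with Zeb2 (6.01 and 3.87) and an Sp5 peak in the first replicate alone. The Zeb2 peak of the second replicate was near the threshold, with 8 fragments and a −log10 q of 1.93, at percentile 5.2 of its list. The Zeb2 summits lay at -350 and -439 bp from the strongest p300 summit. The region at 15848 bp is mixed, since the first mESC library had a p300 peak there (3.5) and the second had none.

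Hand2, a bHLH factor of the heart and limb (chromosome 8, 57320983 to 57324517), had 4 gastruloid p300 regions, all gastruloid-only and all modest, with mean folds from 4.14 to 5.61. It had the most Zeb2 regions of any member, 3, and both of its p300 regions with the higher mean folds held Zeb2. The stronger, 9885 bp downstream, had p300 at 6.97 and 4.26 and Zeb2 at 4.23 and 4.87. The other, 16545 bp downstream, had p300 at 5 and 4.75, Zeb2 at 5.15 and 5.2, and RXRα in both mESC libraries (4.38 and 4) and in the first gastruloid library (4.86). The third Zeb2 region, 8134 bp upstream (7.81 and 5.47), had p300 in the first replicate only. Of 2 Sp5 regions, the one 15892 bp upstream (12.1 and 5.02) had no peak of any other factor.

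Nkx2-5, a homeodomain factor of cardiac progenitors (chromosome 17, 26838664 to 26844988), was the member with more mESC-only than gastruloid-only p300 regions. The strongest of its mESC p300 regions, 2534 bp downstream, was mESC-only, with folds of 13.2 and 11.7 (96 and 63 fragments) and RXRα in mESCs at 5.84 and 4.57. The other 2 mESC-only regions, 10840 bp downstream and 11204 bp upstream, had folds of 5.36 and 3.36, and of 5.95 and 5.96. Its gastruloid regions had folds of 4.11 and 4.36 at 390 bp inside the upstream end, and of 3.14 and 3.89 at 5901 bp upstream. That end of the RefSeq gene lies upstream of its promoter window. Isl1, a LIM-homeodomain factor of the second heart field (chromosome 13, 116298270 to 116309688), had 3 gastruloid p300 regions and none in mESCs. The strongest, inside the gene, had folds of 8.26 and 8.52 with no other factor. Its summit lay 5313 bp inside the upstream end, and an Sp5 region (8.61 and 5.98) lay close by without overlap, 4812 bp inside that end. Both Zeb2 regions of Isl1 lay outside its p300 regions. The Zeb2 region 4316 bp downstream overlapped a p300 peak of the second gastruloid library alone (4.22).

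Among the vessel and blood factors, Etv2 (chromosome 7, 30633616 to 30636509) is a short gene closely flanked by others, with 8.89 kb in which a summit would be assigned to it. Its single p300 region, inside the gene, was gastruloid-only (5.16 and 4.59) and was the members' only region that held p300, Sp5 (13.5 and 6.2) and Zeb2 (4.44 and 3.48) in both replicates each. The Zeb2 peak of the second replicate was near the threshold, with 8 fragments and a −log10 q of 1.54, at percentile 1.42 of its list. The Sp5 summits lay at -88 and -80 bp from the strongest p300 summit. Tal1, a bHLH factor required for blood formation (chromosome 4, 115056426 to 115071755), had 1 region, 8041 bp downstream, with gastruloid p300 folds of 5.04 and 8.59 and a peak in the second mESC library alone (3.57). It also had RXRα (6.33), Sp5 (3.65) and Zeb2 (5.03) in the first gastruloid replicates only. Lmo2, the bridging protein of Tal1 and Gata complexes (chromosome 2, 103957903 to 103981878), had 4 gastruloid-only p300 regions. The strongest of them, inside the gene (6.9 and 6.61), had no other factor. The one 66159 bp beyond the lower-coordinate end (4.68 and 6.52) also had RXRα in both mESC libraries (4.96 and 5.32).

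Runx1, the factor required for the first blood stem cells (chromosome 16, 92601466 to 92826074), had 11 p300 regions in gastruloids and 5 in mESCs, and no position was common to both. Nkx2-5, which also had regions in both cell types, had none in common either. Over all genes 27202 of 42519 gastruloid p300 regions were gastruloid-only and 11037 of 25180 mESC ones were mESC-only. Of the 11 gastruloid regions of Runx1, 10 lay inside the gene, with mean folds from 3.89 to 8.21. The strongest lay 4261 bp inside the upstream end (7.53 and 8.9), and the next at 7838 bp inside the downstream end (6.48 and 8.89) and at 37452 bp inside the upstream end (7.04 and 8.21). No region of RXRα, Sp5 or Zeb2 was found at any of the 11, and 7 had no peak of these factors in any gastruloid library. Of the mESC regions the strongest, 79979 bp inside the downstream end, had folds of 11.1 and 11.3 and was above the other 4 in both replicates.

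Kdr (chromosome 5, 75932827 to 75979072) is the receptor of the set and had 11 gastruloid p300 regions, 9 of them gastruloid-only, and no mESC-only region. Its strongest, chr5:76043821-76044557, lay 65027 bp upstream, with folds of 15.9 and 19.8 and 120 and 118 fragments, the most of any member's p300 region. It had no peak of any other factor and none in mESCs. On the downstream side 2 more gastruloid-only regions stood high, at 36090 bp (10.7 and 15.9) and at 49790 bp (10.7 and 14.5). The shared region inside the gene, 9187 bp from its downstream end, had folds of 13.4 and 11.7 in mESCs and 11.9 and 14.3 in gastruloids, and the other shared region, 24686 bp downstream, had 8.23 and 6.48 in mESCs and 8.76 and 12.6 in gastruloids. RXRα was found in both cell types at 61534 bp downstream, with folds of 18.5 and 17.2 in mESCs and 23.7 and 10.6 in gastruloids, and no p300 library had a peak there.

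**Figure D3:**
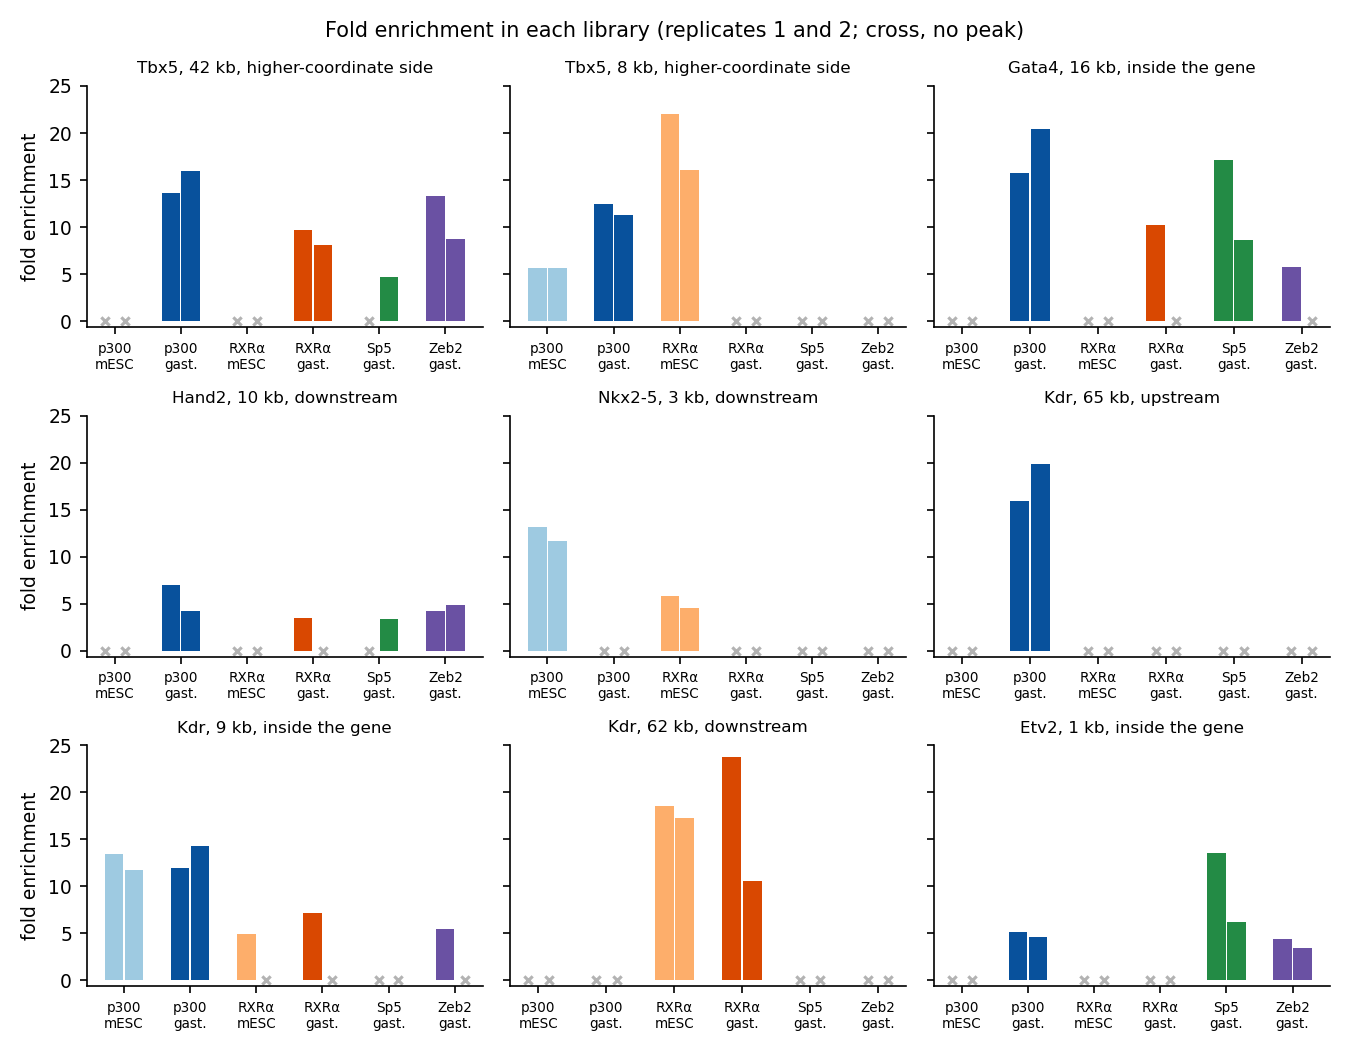
Fold enrichment (y axis, starting at 0) in each of the 12 immunoprecipitation libraries (x axis, replicates 1 and 2 side by side, a cross for no peak) at 9 regions, titled by gene, distance of the summit from the nearest gene end, and position. RXRα stands beside gastruloid p300 in gastruloids at the Tbx5 region 42 kb out, in mESCs alone at the one 8 kb out, and without p300 at the Kdr region 62 kb downstream.

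The other factors were at few of the members' p300 regions. In gastruloids 3 of 49 held an Sp5 region (6.12%, 95% Clopper-Pearson interval 1.28% to 16.9%), against 20.9% over all genes, and 5 held Zeb2 (10.2%, 3.4% to 22.2%), against 17.1%. RXRα was at 1 (2.04%, 0.0517% to 10.9%), against 4.28%. Over all genes the median Sp5 region lay 283 bp and the median Zeb2 region 1056 bp from a gene end, while the median gastruloid p300 region lay at 11410 bp over all genes and at 15659 bp for the members. Among p300 regions over 1 kb from an end, the members' shares were 4.35% for Sp5, 10.9% for Zeb2 and 2.17% for RXRα, and those of all genes 8.58%, 10% and 2.92%, inside the members' intervals (0.531% to 14.8%, 3.62% to 23.6% and 0.055% to 11.5%, 46 regions). Zeb2 was at 4 of 21 cardiac regions and at 1 of 28 vessel and blood regions, and that contrast was not tested.

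These counts rest on the shorter list of each factor. With the first Zeb2 replicate alone 22 of 49 regions (44.9%) had a peak, against 45.2% over all genes, and with the second alone 5 (10.2%, against 17%). For RXRα the first replicate gave 13 (26.5%, against 33.6%) and the second 1, and for Sp5 the replicates gave 8 (16.3%, against 29.1%) and 5 (10.2%, against 21.9%). With lists of equal length 7 p300 regions were left, of which 2 held Zeb2 (28.6%, against 19.1% over all genes) and 1 held Sp5 (14.3%, against 14.2%). No peak of any of the 3 factors in any gastruloid library was found at 24 of the 49 regions (49%, beside 46% over all genes), among them 8 of the 11 at Kdr and 7 of the 11 at Runx1.

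**Figure D4:**
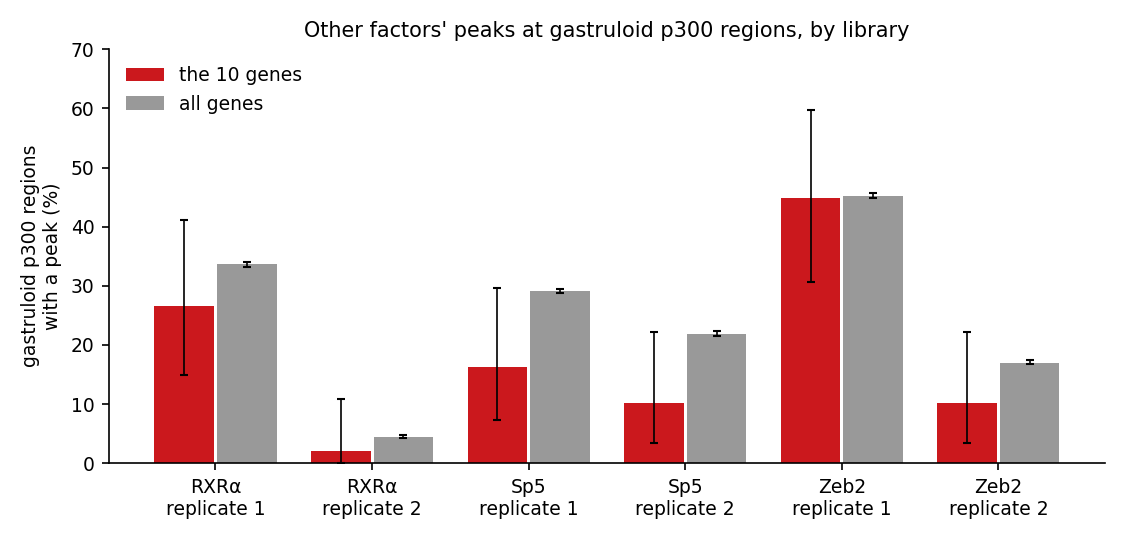
Percent of gastruloid p300 regions with a peak of RXRα, Sp5 or Zeb2 in each single library (x axis), for the 49 regions of the 10 genes (red) and the 42519 assigned regions of all genes (grey), with 95% Clopper-Pearson intervals as bars. For Zeb2 the 10 genes stand at 44.9% in the first replicate and 10.2% in the second, and every value of all genes lies within the interval of the 10 genes.

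Seen from the factors, 3 of the members' 6 Sp5 regions lay at gastruloid p300 regions (50%, against 84.9% over all genes), at Gata4, Kdr and Etv2. Of the 9 Zeb2 regions 5 did (55.6%, against 78.1%), 2 at Hand2 and 1 each at Tbx5, Gata4 and Etv2. The 95% Clopper-Pearson intervals, 11.8% to 88.2% for Sp5 and 21.2% to 86.3% for Zeb2, include the values of all genes. The members' Sp5 regions lay at a median of 10352 bp from a gene end, and those of all genes at 283 bp. In mESCs 2 of the 10 RXRα regions lay at mESC p300 regions (20%, 95% Clopper-Pearson interval 2.52% to 55.6%, against 42.4%), at Tbx5 and Nkx2-5, and 4 of the 10 lay at p300 regions of gastruloids (40%, 12.2% to 73.8%, against 45.3%). Of the 6 RXRα regions of a single cell type 1 was gastruloid-only (16.7%, against 2.58% over all genes), the Tbx5 one. That share rests on the short second gastruloid list: without that library, with each peak of the first counted as a region, it was 16 of 21 (76.2%, against 46.8%), and without the second mESC library 1 of 22 (4.55%).

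The median of the mean folds was 5.61, beside 6.28 over all assigned regions, and it was 6.57 beside 7.2 in mESCs. A mean fold of at least 10 was reached by 11 of the 49 (22.4%, beside 17.8% over all genes), 5 at Kdr, 3 at Tbx5 and 3 at Gata4. Of these 11, 6 had no other factor in any gastruloid library (54.5%, beside 46.9%). In both replicates 3 of the 49 regions ranked in the top 10% of their list by −log10 q: the strongest of Tbx5, Gata4 and Kdr. The same count over all genes was not made, so it does not set the members apart from other genes.

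**Figure D5:**
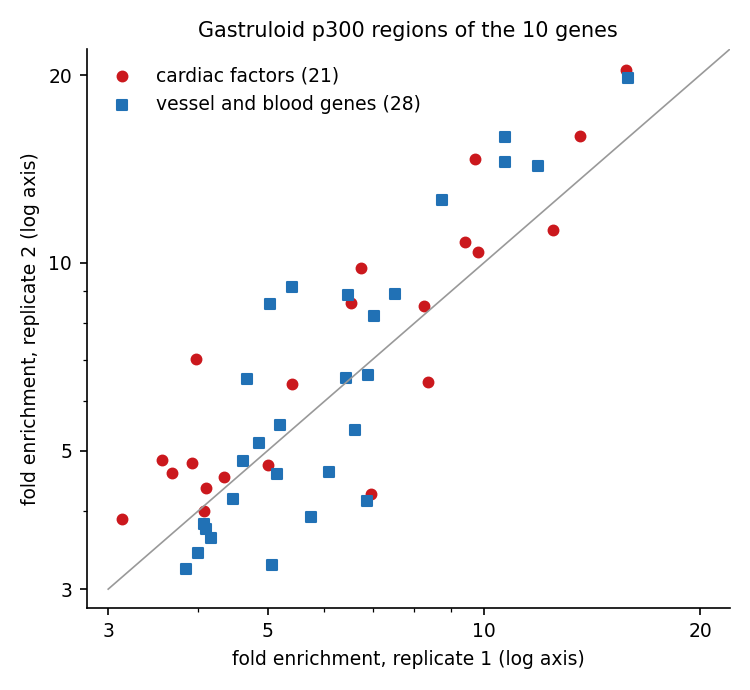
Fold enrichment of the 49 gastruloid p300 regions in replicate 1 (x axis, log scale) and replicate 2 (y axis, log scale), 21 at the cardiac factor genes (circles) and 28 at the vessel and blood genes (squares), with a line of equal values drawn to guide the eye. The top right pair are the Gata4 region (15.8 and 20.4) and the upstream Kdr region (15.9 and 19.8).

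The limit of 100 kb passed through some of these neighbourhoods. Just inside it lay p300 regions of Runx1 at 84390 and 96199 bp and of Tbx5 at 93042 bp. Just outside lay gastruloid-only regions at 100737 bp from Tbx5 (4.01 and 5.16), 106432 bp from Kdr (13.1 and 16.1) and 113611 bp from Runx1 (4.53 and 6.05). Isl1, with 3 regions inside the limit, had 10 more gastruloid p300 regions at 124230 to 541240 bp for which it was the nearest gene, all gastruloid-only, with mean folds from 3.95 to 14.3. Runx1 had 10 more, 6 of them gastruloid-only, and Hand2 had 2.

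Other genes of the same pathways, from lists set out beside the members, gave smaller shares, and the differences from the members were not tested. At 18 other cardiac transcription factor genes 41 of 62 p300 regions found in a single cell type were those of gastruloids (66.1%, median 2 per gene), and at 18 heart muscle genes 21 of 36 (58.3%, median 1). Over all genes the share was 71.1% and the median 1, and over the members 83% and 4. The medians do not allow for the length of each gene's stretch of assignment. Myocd, the coactivator of muscle genes, had 8 gastruloid-only regions against 0 mESC-only ones, Mef2c, a MADS-box factor of the heart, 4 against 0, and Gata6, a relative of Gata4, 4 against 1. Tbx3, which is also active in mESCs, had 2 against 5 and Smarcd3, a subunit of a chromatin remodeller, 2 against 4. Tbx3 also stood among the 8 pluripotency genes of the label check, and the cardiac share without it was not counted. Among the muscle genes Tpm1 had 10 against 2, Slc8a1 2 against 0, Actn2 2 against 2 and Myl2 0 against 2. At 26 other endothelial and blood factor genes 65 of 84 were gastruloid-only (77.4%), with Mecom at 11 against 3, Prox1, the factor of lymphatic vessels, at 11 against 0, Ets1 at 6 against 0, and Gata1, the red cell factor, at 0 against 2. At 21 vessel and blood surface or signalling genes the share was 45 of 62 (72.6%), with Nrp1, a coreceptor of Kdr, at 13 against 0, Notch1 at 5 against 1, Efnb2 at 4 against 1, Pecam1 at 4 against 5 and Flt4 at 0 against 2.

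Kdr had the most gastruloid p300 regions of the members, level with Runx1. The genes nearest to it in numbers of regions over the 6 groups were Cops8, Myo1d and Scfd2, each at a Euclidean distance of 1.41, and each with 11 gastruloid p300 regions and 1 RXRα region of gastruloids.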

How the data were processed

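MACS2 2.2.7, BWA 2.2.1 and fastp 0.20.1 are named in the submitters' processing notes, with GRCm38.p6 (mm10) as build and no role, order or control stated. The deposited lists, 1 per library, hold 422096 peaks with a whole-number score, the authors' fold enrichment (a ratio), their −log10 p and −log10 q (from a q threshold of 0.05) and the summit offset. The offset is the authors' position of the summit in bp. Depth was not given. Fragments at summits were solved from fold and −log10 p, and 176 of 176 members' peaks came out whole within 0.01.

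Peaks on the 21 main chromosomes that overlapped no input peak were merged into regions covered in both replicates (overlap of at least 1 bp) and assigned to the nearest protein-coding gene end within 100 kb. Shared regions had a peak in both libraries of the other cell type and mixed ones in 1. Python 3.11.15, numpy 2.4.6, pandas 2.3.3 and scipy 1.17.1 were used, and the counting was tested on simulated lists. All members were named; other genes were the 3 of each list with the most gastruloid-only and the 2 with the most mESC-only p300 regions. Members and lists were chosen with earlier results of these data known. Sequences are from RefSeq (GRCm38.p6); gene ends include predicted transcripts. The alternatives were leaving out a library, a −log10 q of at least 5, lists of equal length, assignment within 20 kb or to any member end within 100 kb, input peaks kept, and a stricter overlap.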

Additional observations from a re-analysis of the deposited data

Results flagged for a closer look

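At Tbx5 the numbers of p300 and RXRα peaks per library moved in opposite directions between the cell types. The mESC libraries had 3 and 3 p300 peaks and the gastruloid libraries 10 and 7, a difference in means of 5.5. For RXRα the mESC libraries had 5 and 4 and the gastruloid libraries 3 and 1, a difference of -2.5. Every gastruloid library lay above every mESC library for p300 and below every one for RXRα. The difference between the factors was not tested. The RXRα lists of gastruloids are shorter (29867 and 3111 peaks, against 49661 and 28112 in mESCs) and the p300 lists longer (63117 and 75346, against 44506 and 35371), and the part of list length in this pattern was not tested.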

How the results depend on the processing

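The 11 results were recomputed under 6 settings besides left-out libraries, and 44 of these 66 values stayed within 1.5 times the reported count or inside the 95% Clopper-Pearson interval of the reported share. The 44 include all 11 values of the setting with input peaks kept. That setting could not move them, since neither input had a peak at a member, so those 11 say nothing on stability. With few regions these intervals are wide: the Sp5 share of 14.3% with lists of equal length and the gastruloid-only share of RXRα of 5.26% with any member end lay inside them. With assignment within 20 kb the members had 31 p300 regions in gastruloids and 6 in mESCs, 5 RXRα regions in mESCs and 0 in gastruloids, and the gastruloid-only share of RXRα and the share of p300 regions with RXRα were both 0%. With any member end within 100 kb, whichever gene is nearest, p300 had 90 and 39 regions, RXRα 4 in gastruloids and 35 in mESCs, Sp5 25 and Zeb2 29, and the Sp5 and Zeb2 shares were both 23.3%. With lists of equal length RXRα had 1 gastruloid region, Zeb2 had 4, the gastruloid-only share of p300 was 65.2% and that of RXRα 0%, and the p300 regions held Zeb2 in 28.6% (2 of 7, against 19.1% over all genes), RXRα in 0% (0 of 1, against 10.9%) and Sp5 in 14.3% (1 of 7, against 14.2%). The Zeb2 share stood above that of all genes here and below it as reported, and the Sp5 shares were nearly equal. With 7 regions left, neither a turn of direction nor the loss of a gap can be told from these shares. In the other settings with a nearest-gene assignment the Sp5 share was below that of all genes. With a −log10 q of at least 5 Zeb2 had 1 region and a share of 2.78%.

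With 1 library left out each peak of the remaining replicate counts as a region, which raises counts by construction: p300 63 to 68 in gastruloids and 18 to 18 in mESCs, RXRα 3 to 25 and 12 to 30, Sp5 8 to 17 and Zeb2 9 to 64. The gastruloid-only share ran from 76.3% to 87.3% for p300 and from 4.55% to 76.2% for RXRα, and the shares of p300 regions with Sp5 from 4.41% to 16.3%, with Zeb2 from 8.82% to 44.9% and with RXRα from 1.47% to 26.5%. In every setting with a nearest-gene assignment the members' p300 share was above that of all genes. No paired analysis was possible because the results are presence in peak lists and come from no test. Fragment numbers of 8 to 142 per summit limit the weaker regions.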

Other observations

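Taken library by library, p300 peaks of the members were absent from both lists of the other cell type in 90.8 ± 0.495% in gastruloids (SD, n = 2; all genes 68.3 ± 1.97%) and in 72.2 ± 7.86% in mESCs (all genes 48.1 ± 2.02%). The mESC value rests on 18 peaks in each library, of which 6 in each were at Runx1, and the difference from all genes was not tested. Runx1 had 11 and 16 gastruloid peaks and, like Nkx2-5, no region common to both cell types.

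The first gastruloid replicates alone gave peaks of other factors at Tal1, which had no region of them. Tal1 had 3 Sp5, 3 Zeb2 and 2 RXRα peaks in the first replicates and 0 in each second one. Lmo2 likewise had 2, 5 and 4 in the first and 0 in each second one. The second lists were the shorter, with 11932 peaks against 19714 for Sp5, 12222 against 44310 for Zeb2 and 3111 against 29867 for RXRα. Etv2 had 2 and 1 p300 peaks in gastruloids and 0 and 0 in mESCs.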
